A study of Mus musculus with 18 samples.

Results

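The IGF binding proteins and the IGF1 axis were examined in mouse mammary tumors through 10 genes: Igfbp2, Igfbp3, Igfbp4, Igfbp5, Igfbp6, Igfbp7, Igf1, Igf1r, Irs1 and Irs2. The genes were taken by name, and all 10 were among the 57126 genes of the count table. All 10 also passed the filter on low counts in each comparison between genotypes. They were selected on earlier results of these tumors, in which their CPM per tumor and group were known, so their levels and fold changes are given as a description and support nothing further.

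Bulk RNA was sequenced from 18 mammary tumors of 16 mice to learn how mutant p53 acts in breast cancer. Of these tumors, 7 were MaPR172H/-, 5 were MaPR245W/- and 6 were MaP-/-. The mice were female F1 hybrids of BALB/c and C57BL/6J, and adenovirus carrying Cre recombinase was injected into the ducts of the mammary gland of every animal. Cre removed wild-type Trp53 sequence, which left the p53 missense protein R172H or R245W opposite a null allele, or no functional Trp53 allele in MaP-/-. Recombination was aimed at the ductal epithelium, so stroma and immune cells in each tumor kept wild-type Trp53. The reporter allele Rosa26LSL-TdTomato/+ was carried by 3 MaPR172H/- and 3 MaPR245W/- tumors and by no MaP-/- tumor. The 6 MaP-/- tumors came from 4 mice, with JM663-T1 and JM663-T2 from 1 mouse and JM833-T1 and JM833-T2 from another. For mice JM779 and JM836 the study's own list of sequenced tumors marks the T2 tumor, whereas the labels name T1, and the labels were followed here.

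Igf1 is a secreted growth factor that signals through the receptor tyrosine kinase Igf1r. Irs1 and Irs2 are docking proteins that the activated receptor phosphorylates and that pass the signal to PI3-kinase. The IGF binding proteins are secreted carriers that hold IGFs outside the cell and either limit or prolong their action, and Igfbp7 is a related protein with low affinity for IGFs. In the mammary gland Igf1 is largely made by stromal cells, and Igfbp5 is known for its rise during involution, when the gland regresses after lactation.

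The promoter stretches of Igfbp7 and Igfbp2 are shown because Igfbp7 was the member called between genotypes and Igfbp2 had the largest fold change. Each covers the bases from 120 to 51 before the RefSeq start on the gene's own strand in GRCm38.p6, and capitals mark GGGCGG (the GC box) on either strand.
Igfbp7 (chr5:77408096-77408165, minus strand): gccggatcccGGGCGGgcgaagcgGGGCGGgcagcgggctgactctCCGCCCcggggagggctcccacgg
Igfbp2 (chr1:72824360-72824429, plus strand): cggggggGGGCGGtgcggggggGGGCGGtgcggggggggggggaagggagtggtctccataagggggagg
GGGCGG was found on either strand in the promoter window of 5 of 10 members, namely Igfbp2, Igfbp7, Igf1r, Irs1 and Irs2, and in 35.7% of all 32851 windows of the same length. These windows run from 250 bases before to 50 bases after the start, and 11 windows covered the 10 members. TATAAA (the letters of the TATA box) was found on either strand in the windows of Igfbp4 and Igfbp6, against 13.6% of all windows. The Igfbp4 match was at -28 from the start on the gene's own strand. That of Igfbp6 was at -148 on the other strand. AAGGTCA, the core bound by the nuclear receptor Nr5a2, was found in the window of Igf1r, against 4.72% of all windows. A match describes the letters of a window and not a bound site.

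The tumors differed in depth and in the cell types they held. Total counts were between 23113578 and 37365062 per tumor. Levels are given as CPM, that is counts scaled to a common library size with edgeR's TMM factors. Trp53 was between 10.8 and 50.1 CPM in MaPR172H/-, between 9.08 and 58.9 CPM in MaPR245W/- and between 9.41 and 21.6 CPM in MaP-/- tumors, so the groups overlapped. The 6 luminal epithelial markers Epcam, Krt8, Krt18, Krt19, Cdh1 and Elf3 were present in every group, with summed levels from 140.1 CPM in JM779-T1 to 8276 CPM in YZ11. A few tumors stood apart in markers of other cells. JM833-T1 had the highest sum of 7 adipocyte markers, 2539 CPM. JM1233 had the highest sum of 7 skeletal muscle markers, 1030.3 CPM, and of 7 macrophage markers, 4047 CPM. JM1126 had the highest sum of 9 fibroblast markers, 33387 CPM, and of 7 endothelial markers, 652 CPM. None of these marker lists had a gene at 0 in every tumor of a group. In bulk tumors, fewer cells of a type and less RNA per cell cannot be told apart. All MaPR172H/- libraries were read on a HiSeq instrument and all others on a NovaSeq instrument, so genotype and instrument cannot be told apart in comparisons with MaPR172H/-. The paper also classed the MaPR172H/- tumors as luminal B or HER2-enriched and all tumors of the other groups as triple-negative. Molecular subtype therefore cannot be told apart from genotype in these comparisons either.

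Among the 10 genes, Igfbp7 was the one called different between MaPR172H/- and MaP-/- tumors. It was 1.99-fold higher in MaPR172H/- tumors, a log2 fold change of 0.996 with an SE of 0.25 and an FDR of 0.026 in edgeR's quasi-likelihood test, adjusted by Benjamini-Hochberg over all genes tested. Thus 1 of 10 members was called, against 8.4% of the 20954 genes tested in this comparison, of which 3.67% were higher and 4.73% lower. Between MaPR245W/- and MaP-/- tumors no member was called, and 0% of 21452 genes tested were called, whereas 2527 had an unadjusted p below 0.05 in edgeR and 424 were called by DESeq2's Wald test. Between MaPR172H/- and MaPR245W/- tumors no member was called, against 9.4% of 22481 genes tested (2.91% higher and 6.49% lower in MaPR172H/-). With a log2 fold change beyond 2 in either direction required as well, no member was called in any comparison, against 1.37%, 0% and 2.34% of the genes tested. By DESeq2's Wald test 3, 0 and 1 members were called in these comparisons, in the same order, against 11.4%, 1.71% and 12.4% of the genes to which it gave an FDR. In edgeR 3, 1 and 1 members had an unadjusted p below 0.05, against 24.7%, 11.8% and 25.9% of the genes tested. In no comparison did the groups fail to overlap for a member, whereas 4.63%, 1.31% and 5.81% of all genes tested did not overlap between groups. The comparisons with MaP-/- share the same 6 control tumors. The median log2 fold change of the 10 members was 0.039 for MaPR172H/- against MaP-/-, -0.26 for MaPR245W/- against MaP-/- and 0.16 between the mutants. Over all genes tested it was 0.0027, 0.020 and 0.0028.

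**Figure D1:**
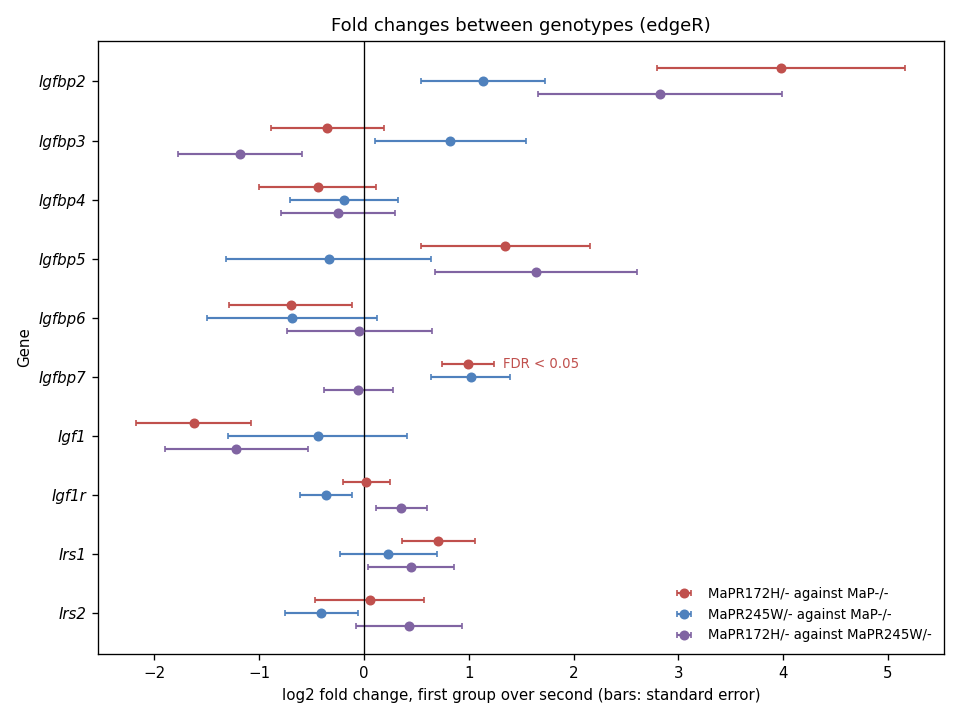
Log2 fold change of each gene (horizontal axis, first group over second) in the 3 comparisons, as points with bars of 1 standard error. Igfbp2 against MaP-/- lies farthest from 0 and has the widest bars of the MaPR172H/- comparison, and Igfbp7 in MaPR172H/- against MaP-/- is the only point with an FDR below 0.05.

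Igfbp7, also called IGFBP-rP1, lies on chromosome 5 (GRCm39, chr5:77493130-77555931, minus strand) and downstream of the promoter stretch with 3 GC boxes shown above. Its level was lowest at 156.4 CPM, median 242.4 CPM and highest at 322.4 CPM in the 7 MaPR172H/- tumors. In the 6 MaP-/- tumors it was lowest at 62.2 CPM in JM779-T1, median 129.2 CPM and highest at 171.5 CPM. In the MaPR245W/- tumors it was 224.5 CPM in JM1233, 118.0 in JM1564, 175.5 in RM0014, 539.6 in JM1126 and 232.9 in JM1133. The MaPR172H/- and MaP-/- ranges overlapped only between 156.4 and 171.5 CPM, and 4 of 5 MaPR245W/- tumors were above every MaP-/- tumor.

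Against MaP-/- tumors, the log2 fold change of Igfbp7 in MaPR245W/- was 1.02 (SE 0.37, n = 5 and 6), with an FDR of 0.37 in edgeR's fit. JM1126, the tumor with the most fibroblast and endothelial marker RNA, held the highest Igfbp7, and without it this log2 fold change was 0.56. The part of those cells in the level was not tested. Between the mutants the log2 fold change was -0.054 (SE 0.33), and 0.41 without JM1126. The summed endothelial markers were between 208.5 and 333.7 CPM in MaPR172H/- and between 299.95 and 582 CPM in MaP-/- tumors, and the part of these cells was not tested. Igfbp7 overlaps Polr2b and 2 other genes on the opposite strand, and the strand setting of the counting is not given in the sources used here. The same limit holds for Igfbp3, Igfbp6, Igf1, Igf1r, Irs1 and Irs2, which also overlap genes on the opposite strand.

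Over 19 alternatives to the test of Igfbp7 in MaPR172H/- against MaP-/-, the log2 fold change stayed between 0.86 and 1.10 and the FDR was between 0.0040 and 0.070. The FDR was below 0.05 in 12 of these. It was 0.069 when the tumors of 1 mouse were summed and 0.070 in a fit of all 18 tumors. Leaving out YZ2, YZ3, YZ11, JM663-T2 or JM833-T2 in turn gave an FDR between 0.0502 and 0.0598.

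Igf1, the ligand (chromosome 10, chr10:87693642-87772904), was higher in some MaP-/- and MaPR245W/- tumors than in any MaPR172H/- tumor. These were JM833-T1, JM833-T2 and JM663-T2 (22.4 CPM) of MaP-/-, and JM1233 and JM1126 of MaPR245W/-. In MaPR172H/- tumors it was lowest at 6.08 CPM, median 12.4 CPM and highest at 18.2 CPM. In MaPR245W/- tumors it was 71.5 CPM in JM1233, 5.65 in JM1564, 9.17 in RM0014, 46.9 in JM1126 and 6.52 in JM1133. In MaP-/- tumors it was lowest at 6.17 CPM, median 19.97 CPM and highest at 115.8 CPM in JM833-T1. All groups overlapped at the low end, and the range was 2.98-fold in MaPR172H/-, 12.7-fold in MaPR245W/- and 18.8-fold in MaP-/- tumors.

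The log2 fold change of Igf1 was -1.62 (SE 0.55) in MaPR172H/- against MaP-/- tumors, with an FDR of 0.085 in edgeR's fit. Without JM833-T1 it was -0.85, with an FDR of 0.24. It was -0.44 (SE 0.85) in MaPR245W/- against MaP-/- and turned to 0.34 without JM833-T1, whereas without JM1233 it was -1.15. Between the mutants it was -1.22 (SE 0.68), and -0.50 without JM1233.

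The 5 tumors with the most Igf1 were JM833-T1, JM1233, JM833-T2, JM1126 and JM663-T2, in falling order. In this order they ranked 6, 1, 4, 3 and 5 in macrophage markers and 2, 6, 5, 1 and 4 in endothelial markers. Their ranks in adipocyte and fibroblast markers were more uneven. The part of any of these cell types in the Igf1 level was not tested. Among the 18 tumors JM833-T1 ranked 1 in adipocyte markers, but 6 in macrophage and 8 in fibroblast markers. JM1233 ranked 1 in macrophage and 2 in fibroblast markers, but 10 in adipocyte markers. JM1126 ranked 1 in fibroblast and endothelial markers, but 9 in adipocyte markers. JM833-T2, with 49.9 CPM of Igf1, ranked 3 in adipocyte and 4 in macrophage markers, but 9 in fibroblast markers. Conversely, JM836-T1 and YZ3 ranked 3 and 4 in fibroblast markers, but 9 and 8 in Igf1. JM779-T1 ranked 2 in macrophage markers, but 7 in Igf1, and JM1133 ranked 3 in endothelial markers, but 15 in Igf1. In MaPR172H/- against MaP-/- tumors 3 of 9 fibroblast, 2 of 7 macrophage and 1 of 7 endothelial markers were lower, and none was higher, at an FDR below 0.05 in edgeR's fit, whereas 4.73% of all genes tested were lower. None of the 7 adipocyte markers was called. The 2 protein-coding genes whose log2 CPM followed Igf1 most closely over the 18 tumors were Rassf2 (Spearman's rho 0.948) and Fli1 (rho 0.940), an ETS factor of endothelial and blood cells. Tumors of 1 mouse are among these 18 points, and no p is given.

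**Figure D2:**
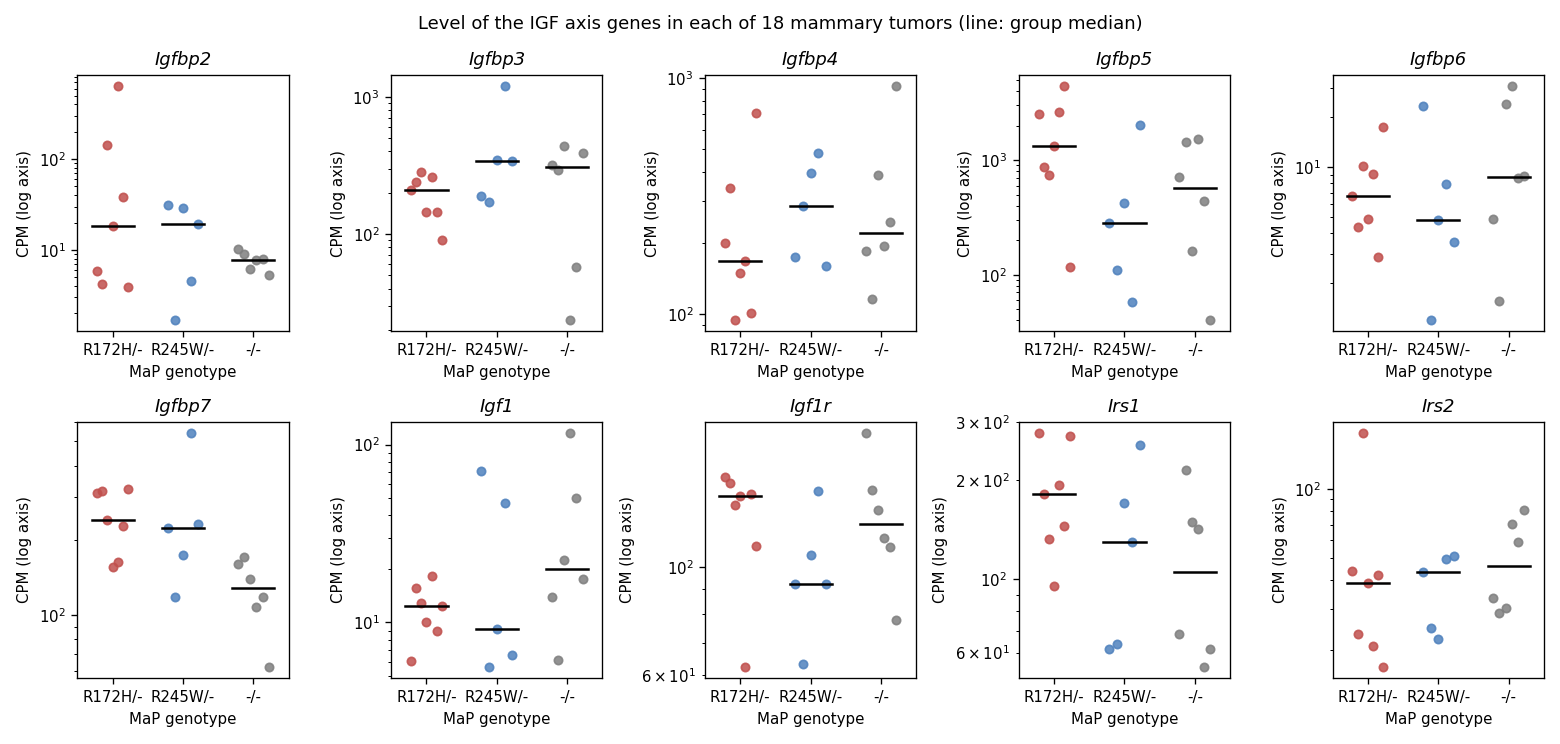
Level of each of the 10 genes in CPM (log axis, separate for each gene), 1 point per tumor, by MaP genotype (R172H/- n = 7, R245W/- n = 5, -/- n = 6), with a line at the group median. Igfbp2 runs from 1.70 to 632 CPM with its highest 2 points in R172H/-, whereas Igf1r stays between 62.5 and 188 CPM.

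Igf1r, the receptor (chr7:67601518-67883416), varied least among the members, with a highest level 3.0 times the lowest over the 18 tumors. It was lowest at 62.5 CPM in YZ7, median 139.7 CPM and highest at 152.8 CPM in MaPR172H/- tumors. The MaPR245W/- values were 92.1 CPM in JM1233, 63.1 in JM1564, 105.8 in RM0014, 143.3 in JM1126 and 92.2 in JM1133. The MaP-/- tumors lay between 77.97 and 187.8 CPM, with a median of 122.6 CPM. The groups overlapped over most of their ranges, and YZ7 held less Igf1r than any other tumor. Its log2 fold change was 0.022 (SE 0.23) in MaPR172H/- against MaP-/-, -0.36 (SE 0.25) in MaPR245W/- against MaP-/- and 0.35 (SE 0.24) between the mutants.

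Irs1 (chr1:82210822-82269338) was between 95.5 and 277.5 CPM in MaPR172H/- tumors, with a median of 181.4 CPM. Among MaPR245W/- tumors it was 61.6 CPM in JM1233, 63.7 in JM1564, 170.1 in RM0014, 129.8 in JM1126 and 255.2 in JM1133. The MaP-/- tumors lay between 54.4 and 215.4 CPM, with a median of 105.1 CPM. The lowest MaPR172H/- tumor lay above the 3 lowest MaP-/- and the 2 lowest MaPR245W/- tumors. The log2 fold change against MaP-/- was 0.71 (SE 0.35) with an FDR of 0.23 in edgeR's fit. For MaPR245W/- against MaP-/- it was 0.23 (SE 0.46), and between the mutants 0.45 (SE 0.41). Without JM1133 these values were -0.12 and 0.80.

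Irs2 (chr8:11034681-11059499), the second docking protein, was highest in the MaPR172H/- tumor YZ4. That tumor held 174.6 CPM, against 16.9 to 43.8 CPM in the other MaPR172H/- tumors, whose group median was 39.1 CPM. In MaPR245W/- tumors Irs2 was 43.6 CPM in JM1233, 24.7 in JM1564, 22.1 in RM0014, 49.7 in JM1126 and 50.9 in JM1133. In MaP-/- tumors it was between 28.8 and 80.7 CPM, with a median of 46.1 CPM. Apart from YZ4 the groups overlapped. The log2 fold change in MaPR172H/- against MaP-/- was 0.056 (SE 0.52), and -0.71 with an FDR of 0.22 without YZ4. It was -0.41 (SE 0.35) in MaPR245W/- against MaP-/- and 0.43 (SE 0.51) between the mutants, the latter -0.30 without YZ4.

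YZ4 also held far more RNA of a block of genes on the same chromosome. Irs2 in YZ4 was 4.29 times its median over the 18 tumors. Of 34 other protein-coding genes that start within 3 Mb of Irs2 and have a median above 1 CPM, 11 were 13.6 to 23.4 times their median in YZ4. These 11, among them Lamp1 (21.8 times), Cul4a (16.6 times) and Tfdp1 (15.0 times), start 1.63 to 2.35 Mb from the start of Irs2, and F7 and F10 within that stretch were at 1.33 and 0.90 times. The 8 genes between Irs2 and this block were at 0.99 to 2.45 times their median, so the level of Irs2 stood above that of its nearest neighbours on that side.

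**Figure D3:**
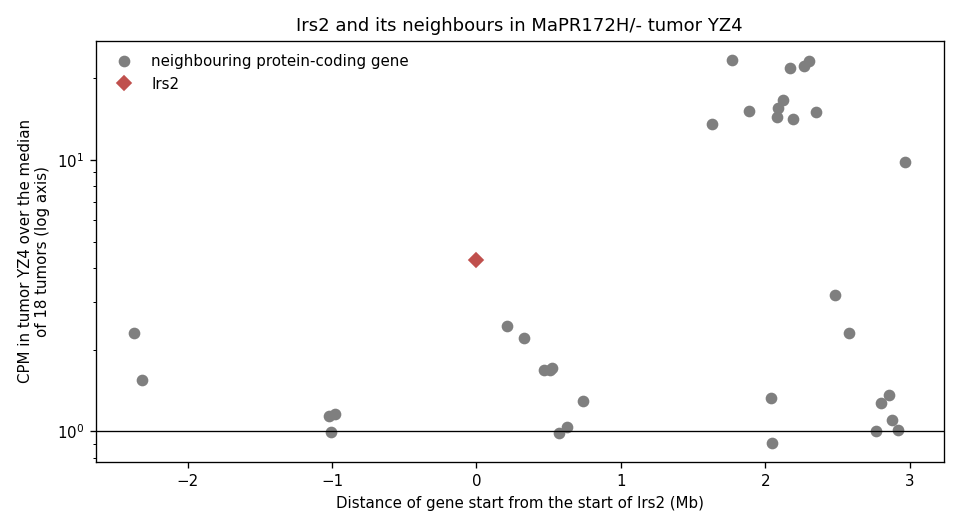
CPM in tumor YZ4 divided by the median of the 18 tumors (log axis) for Irs2 and 34 protein-coding genes, by distance of the gene start from that of Irs2 in Mb. Irs2 is at 4.29, the genes next to it are at 2.45 or less, and 11 genes between 1.63 and 2.35 Mb lie above 10.

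The binding proteins were compared per length, as the share of each in the summed RPKM (CPM per kb of exon) of Igfbp2 to Igfbp7 in a tumor. Igfbp5 held the largest share in 6 of 7 MaPR172H/- tumors, 1 of 5 MaPR245W/- tumors and 4 of 6 MaP-/- tumors. Its median share was 49.1%, 21.97% and 41.2% in these groups. Igfbp3 held the largest share in 3 of 5 MaPR245W/- tumors, with a median of 31.0%, and in 1 MaP-/- tumor. Igfbp4 held the largest share in 1 tumor of each group. Without division by length the order in MaPR245W/- tumors was another, with Igfbp5 first in 3 of 5 and Igfbp3 in 1 of 5. Igfbp7 had median shares of 9.69%, 14.0% and 8.61% in MaPR172H/-, MaPR245W/- and MaP-/- tumors, and Igfbp6 of 0.90%, 1.03% and 2.69%. The ranges of the groups overlapped for each binding protein, and these shares were not tested.

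**Figure D4:**
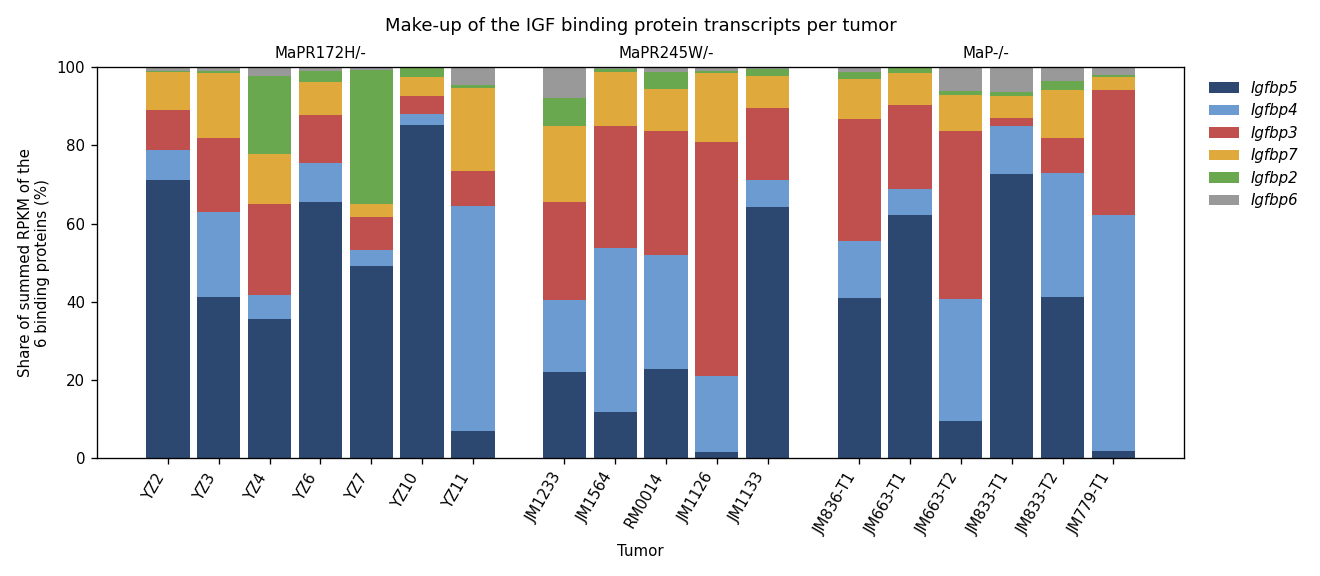
Share of each binding protein in the summed RPKM of the 6 binding proteins (stacked bars, %), 1 bar per tumor, by genotype. Igfbp5 reaches 85.3% in YZ10 and falls to 1.74% in JM1126, and Igfbp2 takes 34.2% in YZ7.

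Igfbp5 (chr1:72897091-72914043) reached the highest level per length of all members, 730 RPKM in YZ10, and had a wide spread. In MaPR172H/- tumors it was lowest at 115.7 CPM in YZ11, median 1316 CPM and highest at 4384 CPM in YZ10. The MaPR245W/- tumors held 280.6 CPM in JM1233, 109.2 in JM1564, 419.7 in RM0014, 58.4 in JM1126 and 2005 in JM1133. Among MaP-/- tumors it was lowest at 40.5 CPM in JM779-T1, median 572.9 CPM and highest at 1531 CPM in JM833-T1. Each group spanned more than 34-fold, and all groups overlapped. Its log2 fold change was 1.35 (SE 0.81, FDR 0.32 in edgeR's fit) in MaPR172H/- against MaP-/-, -0.34 (SE 0.98) in MaPR245W/- against MaP-/- and 1.64 (SE 0.96) between the mutants. Without JM1133 the last value was 3.05, with an FDR of 0.074, and that of MaPR245W/- against MaP-/- was -1.73. The latter was 0.032 without JM833-T1.

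Igfbp4 (chr11:98932064-98945218), a binding protein cut by the protease Pappa, was lowest at 94.6 CPM, median 167.4 CPM and highest at 711.5 CPM in MaPR172H/- tumors. The MaPR245W/- values were 174.6 CPM in JM1233, 287.6 in JM1564, 394.8 in RM0014, 478.0 in JM1126 and 160.2 in JM1133. Among MaP-/- tumors it was lowest at 116.3 CPM, median 219.8 CPM and highest at 918.2 CPM in JM779-T1. The groups overlapped nearly throughout. Its log2 fold change was -0.44 (SE 0.56) and -0.19 (SE 0.51) for MaPR172H/- and MaPR245W/- against MaP-/-, and -0.25 (SE 0.55) between the mutants. Without JM779-T1 the comparisons with MaP-/- turned to 0.18 and 0.39. Without YZ11 the value was -0.97 for MaPR172H/- against MaP-/- and -0.77 between the mutants, the latter -0.0094 without JM1126.

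Igfbp4 and Igfbp5 ran in broadly opposite order across the tumors. The 5 tumors with the least Igfbp5 were JM779-T1, JM1126, JM1564, YZ11 and JM663-T2, and they held ranks 1, 3, 7, 2 and 5 of Igfbp4 counted from the highest. YZ10, with the most Igfbp5, ranked 17 of 18 in Igfbp4. YZ4, with the least Igfbp4, was 10 of 18 in Igfbp5 counted from the lowest, so the order was not strict. Per length, Igfbp5 was 31.9 times Igfbp4 in YZ10 and 0.032 times Igfbp4 in JM779-T1. This order was noticed in these tumors and was not tested.

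**Figure D5:**
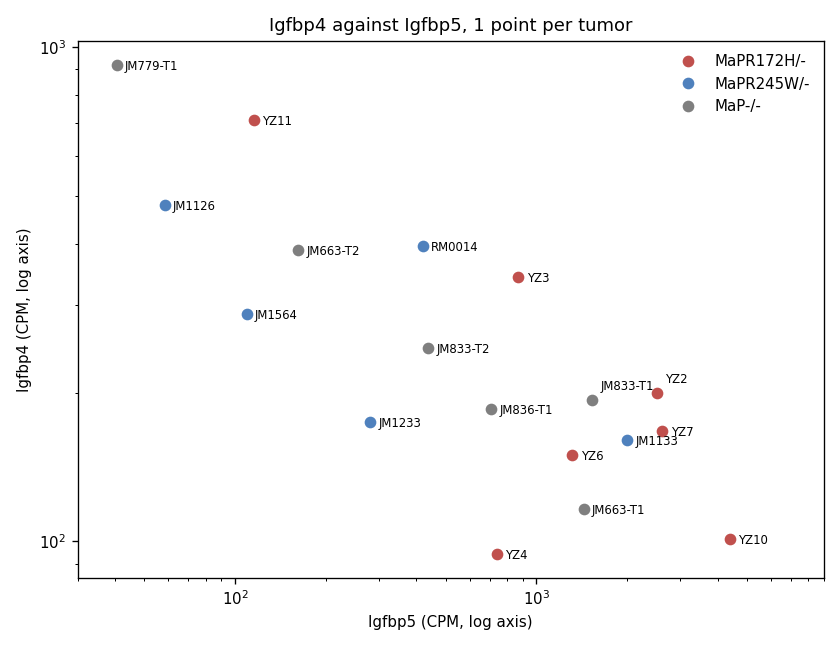
Igfbp4 against Igfbp5 in CPM (both axes log), 1 point per tumor coloured by genotype. JM779-T1 lies at 918 CPM of Igfbp4 and 40.5 CPM of Igfbp5, and YZ10 at 101.1 and 4384 CPM.

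Igfbp3 (chr11:7156086-7164179), the main carrier of IGFs in blood, was lowest at 90.5 CPM, median 210.8 CPM and highest at 285.2 CPM in MaPR172H/- tumors. Among MaPR245W/- tumors it was 190.1 CPM in JM1233, 170.6 in JM1564, 347.6 in RM0014, 1190 in JM1126 and 341.6 in JM1133. Among MaP-/- tumors it was lowest at 23.7 CPM in JM833-T1, median 306.8 CPM and highest at 434.5 CPM. JM1126, with the highest fibroblast markers, whose part was not tested, stood above all other tumors, and both tumors of mouse JM833 were the lowest. The log2 fold change was -0.35 (SE 0.54) in MaPR172H/- against MaP-/-, 0.82 (SE 0.72) in MaPR245W/- against MaP-/- and -1.19 (SE 0.59) between the mutants. Without JM1126 the last value was -0.41 and that of MaPR245W/- against MaP-/- was 0.031. Without JM833-T1 the MaPR172H/- value was -0.59.

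Igfbp2 (GRCm39, chr1:72863606-72891634), whose promoter stretch is shown above, had the widest range of the members. In MaPR172H/- tumors it was lowest at 3.88 CPM, median 18.2 CPM and highest at 632 CPM in YZ7, followed by 143.3 CPM in YZ4. The MaPR245W/- tumors held 31.0 CPM in JM1233, 1.70 in JM1564, 29.0 in RM0014, 4.60 in JM1126 and 19.1 in JM1133. In MaP-/- tumors it was between 5.26 and 10.3 CPM, with a median of 7.82 CPM. The MaP-/- tumors thus lay within 1.96-fold of each other, inside the ranges of both mutant groups. Of the MaPR172H/- tumors 4 were above and 2 below every MaP-/- tumor, and of the MaPR245W/- tumors 3 were above and 2 below.

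The log2 fold change of Igfbp2 was 3.98 (SE 1.18) in MaPR172H/- against MaP-/- tumors, with an FDR of 0.054 in edgeR's fit. Without YZ7 it was 2.25, with an FDR of 0.10. It was 1.14 (SE 0.59) in MaPR245W/- against MaP-/- and 2.82 (SE 1.17, FDR 0.13 in edgeR's fit) between the mutants, the latter 1.06 without YZ7. Igfbp2 and Igfbp5 lie tail to tail on chromosome 1 with 5456 bp between them. YZ4 held 16.9 times the median Igfbp2 and 1.02 times the median Igfbp5. In YZ7 these ratios were 74.6 and 3.61. Neighbours other than Igfbp5 were raised as well. In all, 14 protein-coding genes, Igfbp5 included, start within 1.5 Mb of Igfbp2 and have a median above 1 CPM. In YZ4 1 of these was above 3 times its median, Mreg at 8.79 times. In YZ7 3 were, namely Mreg at 9.23 times, Igfbp5 at 3.61 times and Pnkd at 3.01 times.

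Igfbp6 (chr15:102052697-102057953), a binding protein with preference for Igf2, had the smallest share per length in 8 of 18 tumors, and Igfbp2 in the other 10. It was between 2.87 and 17.5 CPM in MaPR172H/- tumors, with a median of 6.69 CPM. In MaPR245W/- tumors it was 23.4 CPM in JM1233, 1.20 in JM1564, 4.78 in RM0014, 7.95 in JM1126 and 3.55 in JM1133. In MaP-/- tumors it was between 1.56 and 30.6 CPM, with a median of 8.70 CPM. All groups overlapped, and the log2 fold changes were -0.70 (SE 0.59), -0.68 (SE 0.81) and -0.043 (SE 0.69) for MaPR172H/- and MaPR245W/- against MaP-/- and between the mutants. Without JM833-T1 the comparisons with MaP-/- gave -0.26 and -0.23. Without JM1233 the value was -1.59 for MaPR245W/- against MaP-/- and 0.86 between the mutants. JM833-T1, the tumor with the most Igf1 and adipocyte markers, also held the most Igfbp6.

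The tumors of the same mouse were compared with the other pairs of MaP-/- tumors. The difference in log2 CPM within mouse JM663 and within mouse JM833 was below the median of the 13 other MaP-/- pairs for Igfbp3, Igfbp7, Igf1r and Irs2, that is 4 of 10 members, against 34.1% of the 22481 genes kept in the fit of all tumors. For Igfbp5 the JM663 tumors differed by 3.14 on the log2 scale, against a median of 1.99 for the other pairs.

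The 2 protein-coding genes whose log2 CPM followed each other member most closely over the 18 tumors, among 15187 genes, were also listed. For Igfbp7 they were Pdlim7 (Spearman's rho 0.895) and Arhgef17 (0.876), for Igfbp5 Slc26a8 (0.909) and Hapln3 (0.901), and for Igfbp6 Dusp23 (0.897) and Pgm5 (0.893). P4ha1 (0.876), a collagen prolyl hydroxylase subunit, and Ct55 (0.858) were nearest to Igfbp3, Rubcn (0.853) and Capn6 (0.814) to Igfbp2, and Ap5s1 (0.810) and Twf1 (0.808) to Igfbp4. Arhgef5 (0.820) and Mgam (0.806) were nearest to Igf1r, Cnih4 and Scly (both 0.853) to Irs1, and Dnajb13 (0.8287) and L3mbtl3 (0.785) to Irs2. These are the highest of many values, with tumors of 1 mouse among the points, and describe these libraries alone.

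A further 39 genes of the IGF and insulin pathway were listed by function, and 31 or 32 of them were tested per comparison. In MaPR172H/- against MaP-/- tumors 1 of 31 was called, against 8.4% of all genes tested. This was Ghr, the growth hormone receptor, which was lower with a log2 fold change of -1.94 (SE 0.53, FDR 0.039 in edgeR's fit), at a median of 34.4 against 83.0 CPM. The Ghr ranges overlapped, from 23.4 to 67.4 CPM in MaPR172H/- and from 43.7 to 404.6 CPM in MaP-/- tumors. The highest were JM833-T1, the tumor with the most adipocyte markers, and JM779-T1 with 340.5 CPM. JM779-T1 had an adipocyte marker sum of 26.2 CPM. YZ4 had the highest sum of the MaPR172H/- tumors, 410.2 CPM, and also their highest Ghr, 67.4 CPM. The call was lost in 9 of 13 fits with 1 tumor left out, namely without YZ2, YZ3, YZ6, YZ7, YZ10, YZ11, JM663-T2, JM833-T1 or JM779-T1, and with no filter on low counts. Ghr is also made by adipocytes and other stromal cells, whose markers are given above and whose part was not tested. In MaPR245W/- against MaP-/- tumors none of 32 was called by edgeR, which called 0% of all genes tested. None was called by DESeq2's Wald test, against 1.71% of the genes to which it gave an FDR. None had an unadjusted p below 0.05 in edgeR, against 11.8% of all genes tested.

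Between the mutants none of the 32 pathway genes reported here was called by edgeR, whereas 8 of 32 had an unadjusted p below 0.05, against 25.9% of all genes tested. DESeq2's Wald test called 4 genes of the list, namely Grb10, Igfals, Pappa2 and Igf2, of which Igf2 is not among the 32.

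The other ligand, Igf2, was nearly absent, with at most 3.46 CPM (YZ3) and counts of 0 in some tumors of each group, and was removed by the filter on low counts in the main fits. Igfbp1, a binding protein of liver, was at most 0.42 CPM and was removed by the same filter. Igf2r, which clears Igf2, had a log2 fold change of 0.23 (SE 0.31) in MaPR172H/- against MaP-/- tumors, 0.072 (SE 0.51) in MaPR245W/- against MaP-/- and 0.14 (SE 0.44) between the mutants. Insr, the insulin receptor, which can pair with Igf1r, had log2 fold changes of 1.16 (SE 0.53, FDR 0.19 in edgeR's fit), -0.20 (SE 0.22) and 1.33 (SE 0.51), in the same order. The MaPR172H/- tumor YZ7, which held the least Igf1r, held 1458 CPM of Insr against 163.4 to 367.3 CPM in the other tumors of its group.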

How the data were processed

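RNA of 18 tumors had been depleted of ribosomal RNA, made into stranded libraries, aligned by the authors to GRCm39 (STAR 2.7.10b) and quantified with RSEM 1.3.3 on GENCODE M34. The deposited table holds raw whole-number counts. How RSEM estimates became whole numbers and the strand setting are not given in the sources used here. Each mutant was fitted separately with the MaP-/- tumors in edgeR 4.0.16 under R 4.3.3, with TMM, filterByExpr, the quasi-likelihood test and a Benjamini-Hochberg FDR threshold of 0.05 over all genes tested. MaPR172H/- and MaPR245W/- were contrasted within 1 model of all 18 tumors. The SE is the log2 fold change divided by the square root of F. CPM used the TMM factors of the 18-tumor fit, and RPKM the merged exon length in GENCODE M39, whose gene positions are given (GRCm39). Promoter windows were RefSeq's (GRCm38.p6). The members and lists were chosen with earlier results of these data known. Named were all members, Igf2, Igf2r, Insr and Igfbp1, pathway genes at an FDR below 0.05 (at most 6 per comparison) and the 2 genes most like each member. The neighbours of Irs2 were chosen after their values were seen. Alternatives were DESeq2 1.42.0 size factors and its Wald test, other filters on low counts, a log2 fold change threshold of 2, tumors of 1 mouse summed, other tumors in the fit, and each tumor left out. A gene of the pathway list is not reported here and was left out of its counts. Scripts were tested on simulated data. The mouse was not a term of the fits, so the MaP-/- tumors were counted as 6 although they came from 4 mice.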

Additional observations from a re-analysis of the deposited data

Results flagged for a closer look

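Each of 13 genes was checked in each group for a tumor far from the rest of its group, that is 39 gene and group pairs. Of these pairs 4 were flagged, where chance flags about 1 in 20. Igf1r in the MaPR172H/- tumor YZ7 was 62.5 CPM, and the nearest tumor of the group held 110.5 CPM. Insr in the same tumor was 1458 CPM, with the nearest at 367.3 CPM. Irs2 in the MaPR172H/- tumor YZ4 was 174.6 CPM, with the nearest at 43.8 CPM. Igf2r in the MaP-/- tumor JM833-T2 was 139.5 CPM, with the nearest at 383 CPM.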

How the results depend on the processing

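The number of members called in MaPR172H/- against MaP-/- was 1 and became 3 with DESeq2's Wald test (Igf1, Igfbp2 and Igfbp7), 0 with tumors of 1 mouse summed, 0 with a log2 fold change threshold of 2, and 0 to 2 when a tumor was left out. It was 0 without JM663-T2 or JM833-T2 and 2 without JM663-T1 (Igf1 and Igfbp7). Where the count stayed at 1, the gene could change: in the fit of all 18 tumors and without YZ2, YZ3 or YZ11 it was Igfbp2 and not Igfbp7. Between the mutants 0 members were called, and 1 (Igfbp2) with the Wald test. Among pathway genes in MaPR172H/- against MaP-/- the count of 1 became 2 with the Wald test and in the fit of all 18 tumors (Ghr and Sh2b1), 0 with no filter on low counts, 0 with the fold change threshold, and 0 to 1 when a tumor was left out, being 0 without YZ2, YZ3, YZ6, YZ10, YZ11, JM663-T2, JM833-T1 or JM779-T1. Without YZ7 the count was 1, but the gene was Sh2b1 and not Ghr. Between the mutants the count of 0 became 4 with the Wald test (Grb10, Igf2, Igfals and Pappa2), 2 with tumors of 1 mouse summed (Grb10 and Igf2), 2 in a fit of the 12 mutant tumors (Grb10 and Eif4ebp1), and 0 to 3 when a tumor was left out, the highest without JM1133. It was also above 0 without YZ7, JM1564, JM663-T2 or JM779-T1. In MaPR245W/- against MaP-/- the counts were 0 under every alternative run, for members and pathway genes. There the main fit called 0% of all genes tested and the Wald test 1.71% of the genes to which it gave an FDR. The median share of Igfbp2 in MaP-/- tumors moved from 1.09% to 0.49% without division by length, and the other 17 group medians moved by less than 1 SD. Among these 17, the median of Igfbp5 went from 49.1% to 68.0% in MaPR172H/- tumors. It went from 21.97% to 30.4% in MaPR245W/- and from 41.2% to 50.5% in MaP-/- tumors. Without that division the medians of Igfbp2 in MaPR172H/- and MaPR245W/- were 0.78% and 0.69%, and those of Igfbp6 were 0.25%, 0.35% and 0.80% in MaPR172H/-, MaPR245W/- and MaP-/-. Division by length and the fold change threshold were each changed alone, and the causes of the other changes were not tested. Leaving out or summing tumors changed the number of tumors and their values together. None of the 420 log2 fold changes of members with a tumor left out, nor of the 180 under other settings, moved by more than 1 SD of the tumors within a group. That SD is a wide limit for leaving out 1 tumor, so this says little about stability. Igfbp5 between the mutants went from 1.64 to 3.05 without JM1133. In MaPR172H/- against MaP-/-, Igfbp2 went from 3.98 to 2.25 without YZ7, and Igfbp4 from -0.44 to 0.18 without JM779-T1. No paired analysis was possible because the tumors of the groups came from different mice. Depth was not limiting for the members, the lowest count being 39 (Igfbp6), whereas Igf2 and Igfbp1 were removed by the filter on low counts in the main fits.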

Other observations

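The MaPR172H/- tumors with the most Igfbp2 were also those with the least Met, the gene of the hepatocyte growth factor receptor. Met was 59.5 CPM in YZ7 and 205.2 CPM in YZ4, against 7240 to 12481 CPM in the other 5 MaPR172H/- tumors. Among MaPR245W/- tumors JM1233, with the most Igfbp2 of its group (31.0 CPM), held 736 CPM of Met, whereas JM1126 held 521.4 CPM of Met and 4.60 CPM of Igfbp2, and JM1133 held 12569 CPM of Met and 19.1 CPM of Igfbp2. Both genes were chosen after their values were seen, and the relation was not tested. Grb10, an adaptor that dampens insulin and IGF1 receptor signaling, lay between 22.8 and 74.6 CPM in MaPR172H/- and between 59.8 and 388.5 CPM in MaPR245W/- tumors. Its log2 fold change between the mutants was -1.71 with an FDR of 0.051 in edgeR's quasi-likelihood test, and it was also chosen after its values were seen.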
